A study of Mus musculus with 4 samples.

Results

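Transcripts of the lymphoid lineages were examined in sorted CD24+ emergency progenitors (EPs), the CD11c+CD117+ splenic cells that expand under Flt3 ligand and give rise to dendritic cells. The 9 genes were chosen for their known roles: *Cd79a*, *Cd79b*, *Ms4a1*, *Ebf1* and *Pax5* for B cells, *Il7r* for lymphoid progenitors and T cells, *Cd3e* and *Trbc2* for T cells, and *Nkg7* for NK and cytotoxic cells. Of the 40213 gene symbols in the files, 8 of the 9 were matched, and *Trbc2* was not analysed here. The data are bulk RNA-seq from 4 mouse spleen samples, 2 labelled WT and 2 labelled TopBP1cKO. The methods describe the cKO mice as TopBP1 fl/fl with CD11c-cre, a transgene that drives deletion in cells with an active CD11c promoter, and the WT mice as TopBP1 fl/fl littermates. Every mouse received 10 μg Flt3L-Ig intraperitoneally on day 0 and again on day 3, and spleens were sorted on day 9. The labels do not say whether a library came from 1 mouse or from pooled mice, and the p-values measure only the spread between these samples.

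The B cell receptor signals through the CD79A and CD79B chains, whose genes are switched on in early B lineage cells by the transcription factors EBF1 and PAX5. *Ms4a1* encodes CD20, a surface protein of later B cells. T cells depend in the same way on the CD3 chains and on the constant regions of the T cell receptor. IL-7Rα, the product of *Il7r*, pairs with the common γ chain encoded by *Il2rg* and marks lymphoid progenitors, T cells and innate lymphoid cells. NKG7 is a membrane protein of cytotoxic granules. Some of these genes are also read in the dendritic lineage, and plasmacytoid dendritic cells (pDCs) carry B lineage transcripts such as *Spib* and *Cd79b*.

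Each library held between 14561583 and 15193831 counts. For *Topbp1*, the targeted gene, WT replicates 1 and 2 held 1102 and 1143 counts, with 773 in TopBP1cKO replicate 1 and 1279 in TopBP1cKO replicate 2, the latter above both. The paper's methods do not say which exons are deleted, and the counts are sums over the whole gene. They do not show the deletion in both libraries, and the second group is therefore called by its label. TopBP1cKO replicate 2 also stood apart from the rest over all genes, as the chi-square of its counts against each of the other 3 libraries, divided by its degrees of freedom, was 38.7 to 47.6 and that among those 3 was 11.9 to 14.4, and its mitochondrial share was 4.86% against 3.03% to 3.29%. Values without a library are given for the members and lists, and for other genes where leaving it out changes a call.

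The lymphoid genes were present in every library, but at low levels. Together the 8 genes held 541 and 507 counts in WT replicates 1 and 2, and 774 and 623 in TopBP1cKO replicates 1 and 2, which is 0.00334% to 0.00511% of a library. The genes of the sorted cell were far higher. *Kit*, which encodes CD117, had 6812 and 7181 counts in WT EPs and 6014 and 5916 in the libraries labelled TopBP1cKO. Set against *Cd79a*, that is 122 and 131 *Kit* counts for each *Cd79a* count in WT and 62.0 and 93.9 in the libraries labelled TopBP1cKO. *Flt3*, the receptor of the injected cytokine, ranged from 9495 to 10563 counts, and *Irf8*, a transcription factor of dendritic cell commitment, from 29887 to 37998. *Kit*, *Flt3* and *Irf8* were thus abundant in all 4 libraries, which does not by itself identify the cells as CD24+ EPs. In bulk samples, fewer cells of a type and less RNA per cell cannot be told apart, so a lymphoid count may stand for a few cells or for a little RNA in many.

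Levels of different genes were compared as CPM (read counts scaled to library size by TMM factors) per kilobase of transcript. On this scale *Nkg7* was the highest of the 8 in WT EPs, with a mean of 6.79 CPM per kilobase. It was followed by *Cd79b* at 4.43, *Ms4a1* at 3.42, *Pax5* at 3.30, *Cd79a* at 2.61, *Il7r* at 0.970, *Ebf1* at 0.749 and *Cd3e* at 0.282. *Kit* stood at 91.5 CPM per kilobase and *Irf8* at 1092. The libraries labelled TopBP1cKO were not alike in this order. *Nkg7* led in TopBP1cKO replicate 1, at 14.2 CPM per kilobase, but in TopBP1cKO replicate 2 it stood at 3.72, below *Cd79b* (6.31) and *Pax5* (4.95). The 2 WT libraries also differed in the order of *Ms4a1* and *Pax5*. Averaged over the 4 libraries, *Nkg7* was above 41.7% of all genes tested and *Cd3e* above 5.18%. The intervals of counting error overlapped between neighbours such as *Cd79a* and *Pax5* in a library. *Cd79a*, for example, had 56 counts in WT replicate 1, or 3.85 CPM before TMM scaling (95% exact binomial interval 2.91 to 4.99), against 66 for *Pax5*, or 4.53 CPM (3.51 to 5.77). Such intervals cover counting error only.

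**Figure D1:**
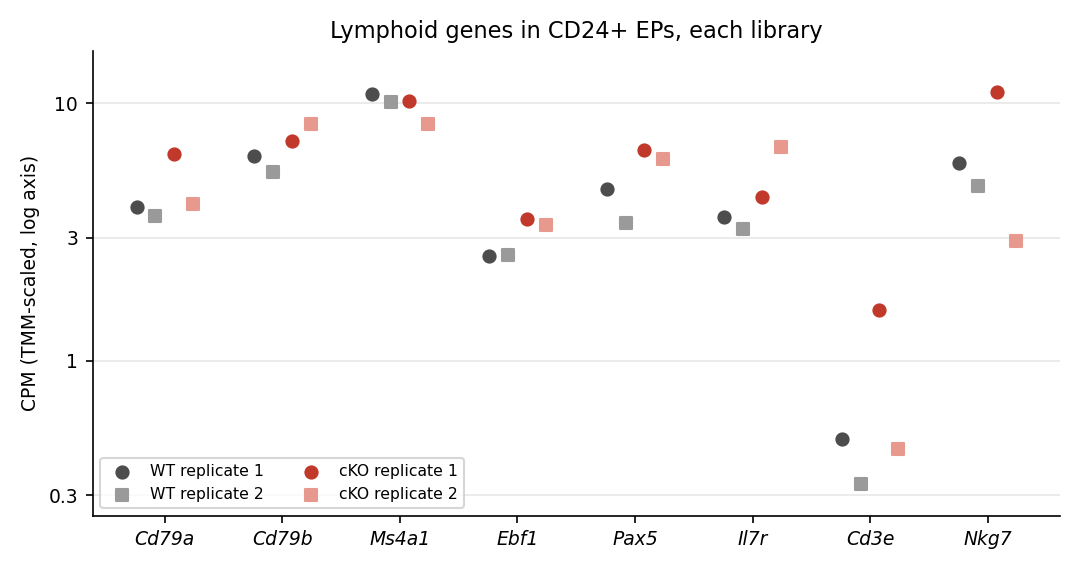
Expression of the 8 genes in each library, as TMM-scaled CPM on a log axis; circles are replicate 1 and squares replicate 2, grey for WT and red for TopBP1cKO. *Pax5* and *Ebf1* sat above WT in both TopBP1cKO libraries, whereas *Cd3e* and *Nkg7* were above WT in TopBP1cKO replicate 1 alone, at 24 and 169 counts.

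Promoter sequence was available for 6 of the 9 genes, as 300 bases of RefSeq GRCm38.p6 from 250 bases before to 50 after the start. The submitters' processing notes name GRCm39, so these windows are given for reference and are not tied to the coordinates of the counting. They were searched on both strands for the palindrome bound by EBF1 (TCCC, any 2 bases, GGGA), for the E-box read by the E proteins of lymphoid cells (CANNTG), and for a core read by ETS factors such as PU.1 (AGGAAGT), the last chosen after the sequences were seen. No window of the 6 genes held the EBF1 letters, which 0.904% of all 32851 promoters held. The E-box was in 6 of the 7 windows (*Ebf1* has 2) and in 72.3% of all promoters, and the ETS core in 3, those of *Cd79a*, *Il7r* and *Cd3e*, and in 9.35% of all. A match is a run of letters and not a shown binding site. Only the full EBF1 palindrome was searched, so the lack of a match does not show that a window holds no EBF1 site. The windows of 4 genes whose counts differed most between the 2 TopBP1cKO libraries are given 5′ to 3′ on the strand of the gene, with E-boxes and ETS cores in capitals: *Cd79a* at chr7:24897247-24897546 (plus strand), *Il7r* at chr15:9529827-9530126 (minus strand), *Cd3e* at chr9:45009562-45009861 (minus strand) and *Nkg7* at chr7:43436888-43437187 (plus strand).
Cd79a: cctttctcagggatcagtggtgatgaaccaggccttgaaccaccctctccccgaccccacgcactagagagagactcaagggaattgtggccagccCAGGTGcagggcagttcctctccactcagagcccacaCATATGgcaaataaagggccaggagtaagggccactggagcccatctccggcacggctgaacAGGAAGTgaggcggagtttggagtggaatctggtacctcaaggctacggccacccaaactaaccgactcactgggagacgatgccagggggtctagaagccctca
Il7r: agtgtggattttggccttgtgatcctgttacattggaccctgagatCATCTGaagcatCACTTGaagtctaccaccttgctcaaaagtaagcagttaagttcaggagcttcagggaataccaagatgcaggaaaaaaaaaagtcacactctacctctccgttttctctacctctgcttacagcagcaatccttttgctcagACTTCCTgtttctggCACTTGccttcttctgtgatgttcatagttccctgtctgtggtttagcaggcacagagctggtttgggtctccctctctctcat
Cd3e: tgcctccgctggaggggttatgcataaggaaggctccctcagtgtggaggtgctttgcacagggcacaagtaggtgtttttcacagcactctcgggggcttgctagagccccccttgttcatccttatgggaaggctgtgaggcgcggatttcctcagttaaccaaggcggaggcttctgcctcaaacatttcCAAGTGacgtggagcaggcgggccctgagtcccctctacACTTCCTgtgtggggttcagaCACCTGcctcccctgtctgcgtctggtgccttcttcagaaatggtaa
Nkg7: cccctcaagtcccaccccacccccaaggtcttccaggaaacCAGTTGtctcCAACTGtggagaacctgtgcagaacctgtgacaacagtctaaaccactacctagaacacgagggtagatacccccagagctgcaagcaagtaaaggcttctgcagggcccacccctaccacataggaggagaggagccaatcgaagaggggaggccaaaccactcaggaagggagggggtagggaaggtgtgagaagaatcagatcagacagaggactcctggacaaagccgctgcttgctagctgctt

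The design asks whether these transcripts differ between the genotypes. None of the members tested passed the threshold, and most leaned upwards in the libraries labelled TopBP1cKO. Of the 8, 7 passed the filter on low counts and were tested by the edgeR quasi-likelihood test over 12393 genes, and *Cd3e* was too low. At FDR < 0.05 the number called was 0 of 7, and also 0 at an unadjusted p below 0.05. Over all genes tested, 0.105% passed FDR < 0.05 and 10.7% had an unadjusted p below 0.05. DESeq2's Wald test, limma-voom and the likelihood ratio test of edgeR also called 0 members at FDR < 0.05. Log2 fold changes were above 0 for 6 of 7, with a median of 0.43 against 0.01 over all genes. Both TopBP1cKO libraries were above both WT libraries for 5 of the 7 (*Cd79a*, *Cd79b*, *Ebf1*, *Pax5* and *Il7r*), as were 22.8% of all genes tested, and no member was below in both, as were 20.8%. With 2 libraries against 2, the smallest p of an exact permutation test is 1/3.

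**Figure D2:**
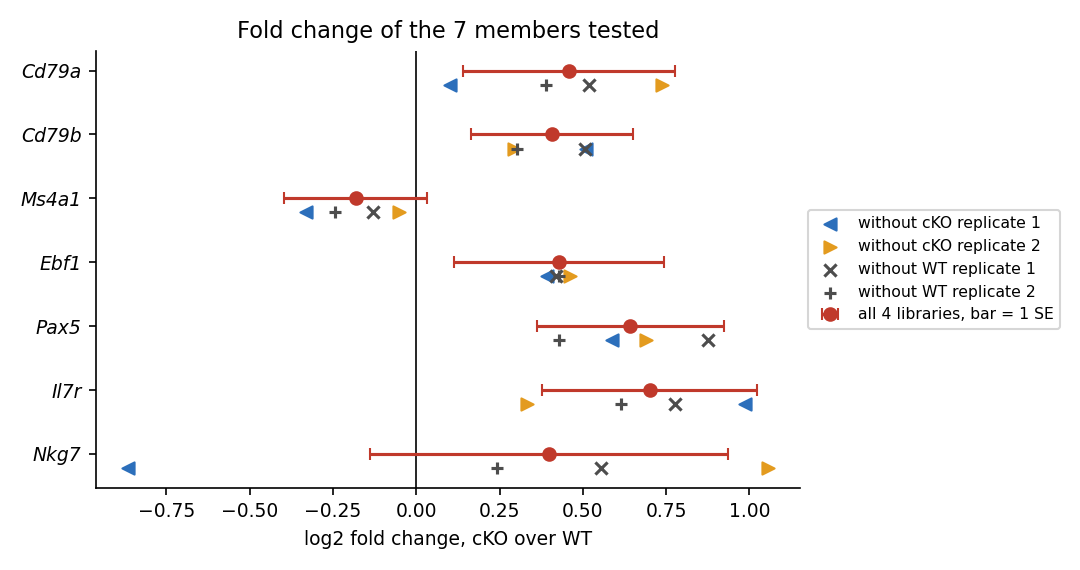
Log2 fold change of the libraries labelled TopBP1cKO over WT for the 7 genes tested; the circle and bar are the value and 1 SE over all 4 libraries, and the other symbols the value with a library left out. *Ebf1* stayed between 0.39 and 0.46, whereas *Nkg7* went from −0.87 without TopBP1cKO replicate 1 to 1.06 without TopBP1cKO replicate 2.

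Among the B lineage genes, the 2 transcription factors had like counts in the 2 TopBP1cKO libraries. *Pax5*, which commits cells to the B lineage, had 66 and 52 counts in WT EPs and 100 and 94 in the libraries labelled TopBP1cKO. The groups did not overlap, and the level went from 4.05 ± 0.865 to 6.32 ± 0.343 CPM (SD, n = 2 each). Its log2 fold change was 0.64 (SE 0.28, edgeR FDR 0.473), and it ran from 0.43 to 0.88 with each library left out, the ends being without WT replicate 2 and without WT replicate 1. Antisense genes lie across *Pax5* exons in the GENCODE annotation, and the use of strand in the counting is not given in the sources used here. *Ebf1*, the factor that specifies the lineage, had 36 and 39 counts in WT and 54 and 52 in the libraries labelled TopBP1cKO. Its replicates lay close together, at 2.56 ± 0.0258 and 3.45 ± 0.129 CPM. The log2 fold change of 0.43 (SE 0.32, edgeR FDR 0.671) did not pass the threshold.

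The receptor chains were less even. *Cd79a* had 56 and 55 counts in WT, 97 in TopBP1cKO replicate 1 and 63 in TopBP1cKO replicate 2. Most of its difference lay in a single library, as the log2 fold change of 0.46 (SE 0.32, edgeR FDR 0.650) was 0.10 without TopBP1cKO replicate 1. *Cd79b* had 88 and 82 counts in WT and 109 and 128 in the libraries labelled TopBP1cKO, a log2 fold change of 0.41 (SE 0.24, edgeR FDR 0.594). The partners therefore peaked in different libraries, with 1.12 *Cd79b* counts for each *Cd79a* count in TopBP1cKO replicate 1, 2.03 in TopBP1cKO replicate 2 and 1.57 and 1.49 in WT. *Ms4a1* had 154 and 153 counts in WT and 155 and 129 in the libraries labelled TopBP1cKO. It was the only member with a fold change below 0 over all 4 libraries, at −0.18 (SE 0.21, edgeR FDR 0.803), and an interval of 2 SE to either side ran from −0.61 to 0.25. The 5 B lineage members summed to 400 and 381 counts in WT and 515 and 466 in the libraries labelled TopBP1cKO.

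*Il7r* had 51 and 49 counts in WT EPs, 66 in TopBP1cKO replicate 1 and 105 in TopBP1cKO replicate 2. Both were above WT, and the highest value was in the library labelled TopBP1cKO whose *Topbp1* count was above WT. The log2 fold change was 0.70 (SE 0.32, edgeR FDR 0.496). Without TopBP1cKO replicate 1 it was 0.99 (edgeR FDR 0.0240), a fit in which 21.2% of all genes passed, and without TopBP1cKO replicate 2 it was 0.33. Between the 2 libraries of the group, TopBP1cKO replicate 1 had 0.626 times the *Il7r* share of replicate 2 (95% exact interval 0.453 to 0.860).

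Counts of *Il7r* and *Ebf1* fell on different transcripts in different libraries. The files give a row for each RefSeq transcript, 5 for *Il7r* and 15 for *Ebf1*, and all 5 of the first and 5 of the second had a count. In *Il7r*, a single row took 47 of the 51 counts in WT replicate 1 and 47 of the 66 in TopBP1cKO replicate 1 and had 0 in the other libraries. Another row took 36 of 49 in WT replicate 2 and 75 of 105 in TopBP1cKO replicate 2. In *Ebf1*, the fullest row held 27 counts in WT replicate 1 and 28 in TopBP1cKO replicate 2, but it was a separate row in each, and yet another row held 28 and 44 in WT replicate 2 and TopBP1cKO replicate 1. Neither division follows the genotypes. The rows named for *Il7r* divided by replicate number, and those named for *Ebf1* did not. On the most abundant row only, the log2 fold change of *Il7r* was 1.01 (edgeR FDR 0.857) and that of *Ebf1* 0.61 (edgeR FDR 0.921). The rule by which reads shared by transcripts were assigned is not given in the sources used here, and the gene sums depend on it less.

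**Figure D3:**
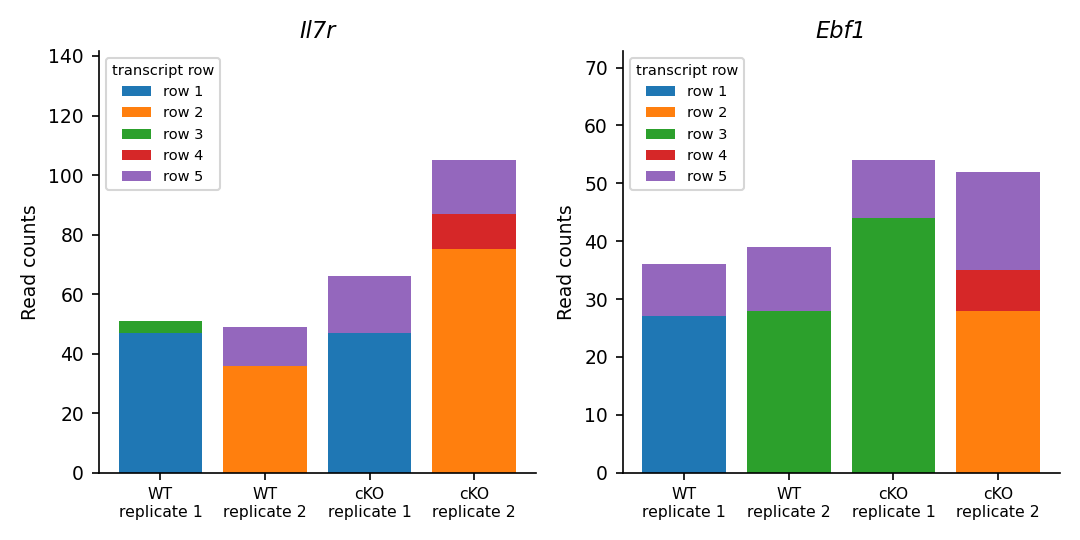
Read counts of *Il7r* and *Ebf1* in each library, stacked by transcript row of the files; colours mark rows within a gene. The total of *Il7r* went from 49 to 105 counts, while the row holding most of it changed between replicates of both groups.

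*Cd3e*, which encodes the ε chain of CD3, was the lowest of the 8 genes. It had 7 and 5 counts in WT EPs, 24 in TopBP1cKO replicate 1 and 7 in TopBP1cKO replicate 2. The last equalled the higher WT library, so the groups overlapped. As a ratio of pooled shares, the libraries labelled TopBP1cKO held 2.54 times the WT level (95% exact interval 1.27 to 5.44, counting error only). For TopBP1cKO replicate 1 alone the ratio was 3.93 (1.89 to 8.62), and for replicate 2 it was 1.15 (0.384 to 3.17). An antisense gene overlaps *Cd3e* exons as well. When no filter was applied, the edgeR FDR of *Cd3e* was 0.795. The 4 CD3 chain genes (*Cd3e*, *Cd3d*, *Cd3g*, *Cd247*) summed to 44 and 28 counts in WT, 119 in TopBP1cKO replicate 1 and 51 in TopBP1cKO replicate 2. The sum was thus highest in TopBP1cKO replicate 1, as *Cd3e* was. It did not overlap between the groups, but the gap was narrow, from 3.11 CPM in WT replicate 1 to 3.30 CPM in TopBP1cKO replicate 2. The constant regions *Trac*, *Trbc1* and *Trdc* were not analysed here, nor were *Ighm* and *Igkc*, so the receptors themselves were not measured.

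*Nkg7* parted the libraries labelled TopBP1cKO most widely. It had 83 and 72 counts in WT, 169 in TopBP1cKO replicate 1 and 45 in TopBP1cKO replicate 2, so that WT lay between them. Its level was 5.31 ± 0.779 CPM in WT and 7.0 ± 5.79 CPM in the libraries labelled TopBP1cKO (SD, n = 2 each), and the log2 fold change was 0.40 (SE 0.54, edgeR FDR 0.831). The direction turned with the library, from 1.06 without TopBP1cKO replicate 2 (edgeR FDR 0.0391, where 1.39% of all genes passed) to −0.87 without TopBP1cKO replicate 1 (edgeR FDR 0.0747). TopBP1cKO replicate 1 held 3.74 times the share of replicate 2 (95% exact interval 2.68 to 5.32).

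The genes with the pattern most like that of *Nkg7* over the 4 libraries are better known from granulocytes and their progenitors. By Euclidean distance of centred log2 CPM among 11386 genes, *Ear6*, *Ear1* and *Ms4a3* were nearest, at 0.226, 0.242 and 0.253. *Ear6* and *Ear1* encode ribonucleases of the eosinophil family, whose close copies can share reads, and *Ms4a3* is a marker of granulocyte and monocyte progenitors. *Ms4a3* had 230 and 167 counts in WT, 389 in TopBP1cKO replicate 1 and 102 in TopBP1cKO replicate 2. On the list of NK and cytotoxic genes, *Cst7*, an inhibitor of cathepsins, went the same way as *Nkg7*, with 92 and 59 counts in WT and 154 and 44 in the libraries labelled TopBP1cKO. So did *Klrd1*, with 351 and 398 against 524 and 308, and *Gzmb*, with 12 and 14 against 23 and 9. Both TopBP1cKO libraries were above both WT libraries for 6 of the 14 genes (22.8% of all genes tested). Among them was *Ncr1*, which encodes the NK receptor NKp46, with 12 and 17 in WT and 38 and 34. The nearest genes to *Cd3e* were *Ldhb*, *Sptb* and *Atp1b1*, at 0.0583, 0.117 and 0.138 among 11387 genes, and to *Cd79a* they were *Ikbke*, *Zfta* and *Slc28a2*, at 0.0329, 0.0493 and 0.0702. With 4 libraries of low counts these distances are descriptions.

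Other genes of the same lineages placed the members in a wider frame. Over 9 lists (B cell surface, B lineage transcription factors, immunoglobulin, lymphoid priming, T cell receptor, T cell signalling, T and innate lymphoid factors, NK and cytotoxic, IL-7 receptor axis), 80 of 94 genes were matched and 72 tested. None passed FDR < 0.05 with the quasi-likelihood test, DESeq2 or limma-voom, and *Il2rg* did with the likelihood ratio test of edgeR. By the first, 12 were higher and 0 lower at an unadjusted p below 0.05, where 6.95% of all genes tested were higher and 3.77% lower. The members had 0 in either direction. Over the lists, the median log2 fold change was 0.46. Both TopBP1cKO libraries were above both WT libraries for 34 of the 72 (22.8% of all genes tested) and below for 6 (20.8%). The highest level of the 4 libraries was in TopBP1cKO replicate 1 for 41 of the 72 genes, or 56.9%, against 20.8% of all genes tested, and in TopBP1cKO replicate 2 for 14, against 34.8%. Among the 7 members tested these counts were 4 and 2. The median of the lists was 0.17 without TopBP1cKO replicate 1 and 0.50 without TopBP1cKO replicate 2.

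The median log2 fold change was 0.38 for the B cell surface genes. At an unadjusted p below 0.05, 2 of 14 were higher, as were 6.95% of all genes tested. Without WT replicate 1 the median was 0.60, and without WT replicate 2 it was 0.20. *Fcrla*, an intracellular Fc receptor-like protein of B cells, had 67 and 66 counts in WT and 204 and 104 in the libraries labelled TopBP1cKO (log2 fold change 1.14, SE 0.35, edgeR FDR 0.347). It was 0.56 without TopBP1cKO replicate 1 and 1.55 without TopBP1cKO replicate 2. *Cd72*, an inhibitory co-receptor, had 88 and 104 against 146 and 148 (0.55, SE 0.22, edgeR FDR 0.445). *Fcmr*, the receptor for IgM, had 37 and 33 against 93 and 46. The methods describe the exclusion of T, B and NK cells for organ cells in general, and do not restate it for this sort.

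Factors of the B lineage had a median of 0.12, and 2 of 10 were higher at an unadjusted p below 0.05 (6.95% of all genes tested). *Spib*, an ETS factor of B cells and pDCs, had 106 and 140 counts in WT and 194 and 258 in the libraries labelled TopBP1cKO (log2 fold change 0.81, SE 0.23, edgeR FDR 0.337). *Ikzf3*, which encodes Aiolos, had 58 and 45 against 98 and 111 (0.94, SE 0.29, edgeR FDR 0.346). Without TopBP1cKO replicate 1 their values were 0.99 and 1.02, and without TopBP1cKO replicate 2 they were 0.60 and 0.86. *Lef1* had 7 and 5 against 21 and 12. Broadly used factors were abundant and gave values near 0, such as *Ikzf1*, with 4170 and 4219 against 4770 and 5136 counts and a log2 fold change of 0.17, and *Bcl11a* at −0.07. On the list of lymphoid priming and recombination, 5 of the 9 genes matched were tested, with a median of 0.05. *Rag1*, which cuts receptor gene segments, had 11 and 3 counts in WT and 7 and 19 in the libraries labelled TopBP1cKO, and *Dntt*, which adds bases at the joins, 9 and 7 against 13 and 2. *Ly6d* had 12 and 13 against 43 and 15. *Jchain*, the only gene matched on the immunoglobulin list, had 502 and 289 against 727 and 465.

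Recombination is completed by the general repair genes of end joining, listed apart from the 9 lists. The median over their 7 genes was 0.13, with 0 at an unadjusted p below 0.05, where 10.7% of all genes tested were. *Prkdc*, the catalytic subunit of DNA-dependent kinase, had 520 and 484 counts in WT and 584 and 813 in the libraries labelled TopBP1cKO (0.40, SE 0.18, edgeR FDR 0.490). *Xrcc6*, which encodes Ku70, had 331 and 373 against 427 and 526 (0.37, SE 0.16, edgeR FDR 0.467). Without TopBP1cKO replicate 1 the 2 genes stood at 0.61 and 0.50, and without TopBP1cKO replicate 2 at 0.15 and 0.21. *Xrcc5*, at low counts, had 8 and 2 against 18 and 11 (1.44, SE 0.73, edgeR FDR 0.532).

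The median over T cell signalling genes was 0.69, and it was 0.26 without TopBP1cKO replicate 1 and 0.93 without TopBP1cKO replicate 2. Of the 11 tested, 9 were highest in TopBP1cKO replicate 1, as were 20.8% of all genes tested. *Lck*, the kinase that phosphorylates the CD3 chains, had 22 and 34 counts in WT, 93 in TopBP1cKO replicate 1 and 35 in TopBP1cKO replicate 2. *Thy1* had 29 and 32 against 106 and 44, and *Lat*, the adaptor downstream, 8 and 3 against 31 and 14. The log2 fold changes of *Lck* and *Thy1* were 0.25 and 0.45 without TopBP1cKO replicate 1, and 1.67 and 1.73 without TopBP1cKO replicate 2. *Cd3g*, tested on the receptor list, had 13 and 13 against 41 and 24 (log2 fold change 1.25, SE 0.47, edgeR FDR 0.415). *Cd8a* differed from the rest in its level, with 2532 and 3114 counts in WT and 2253 and 3173 in the libraries labelled TopBP1cKO. It is also a surface gene of cDC1s, and its partner *Cd8b1*, which is not, had 11 and 14 against 26 and 14. *Tcf7*, a factor of T cells and innate lymphoid cells, had 105 and 113 against 255 and 119 (0.71, SE 0.35, edgeR FDR 0.524). Its value rested on TopBP1cKO replicate 1, as it was 0.05 without that library and 1.16 without TopBP1cKO replicate 2. The median of its list was 0.11, and 0.53 without WT replicate 1.

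On the list of NK and cytotoxic genes, 13 of 14 were highest in TopBP1cKO replicate 1, as were 20.8% of all genes tested. The median log2 fold change of 0.57 was 0.01 without TopBP1cKO replicate 1 and 0.86 without TopBP1cKO replicate 2. Of the 14, 4 were higher at an unadjusted p below 0.05, as were 6.95% of all genes tested. *Ccl5*, a chemokine of cytotoxic cells, had 167 and 199 counts in WT and 323 and 265 in the libraries labelled TopBP1cKO (0.62, SE 0.19, edgeR FDR 0.347), *Il2rb*, the IL-2 and IL-15 receptor β chain, had 66 and 45 against 143 and 97 (1.04, SE 0.33, edgeR FDR 0.352), and the log2 fold change of *Ncr1* was 1.24 (SE 0.42, edgeR FDR 0.364). Without TopBP1cKO replicate 2, *Ccl5* stood at 0.76 and *Il2rb* at 1.29, and without TopBP1cKO replicate 1 at 0.46 and 0.72. *Klrb1c*, the gene of NK1.1, had 25 and 14 against 46 and 22.

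The IL-7 receptor axis was led by *Il2rg*, which had 555 and 693 counts in WT EPs and 897 and 1099 in the libraries labelled TopBP1cKO. Both were above WT, and the level went from 42.5 ± 4.69 to 65.0 ± 8.62 CPM (SD, n = 2 each). The log2 fold change was 0.61 (SE 0.15, edgeR quasi-likelihood FDR 0.307), 0.74 without TopBP1cKO replicate 1 and 0.46 without TopBP1cKO replicate 2. Like *Il7r*, it was highest in TopBP1cKO replicate 2. *Socs2*, which is induced through STAT5, had 51 and 84 counts in WT and 89 and 140, and *Bcl2*, a survival gene of lymphocytes, 359 and 386 against 426 and 520. The signalling genes *Jak1*, *Jak3*, *Stat5a* and *Stat5b* lay between −0.11 and 0.12. The median of the 8 tested was 0.12.

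**Figure D4:**
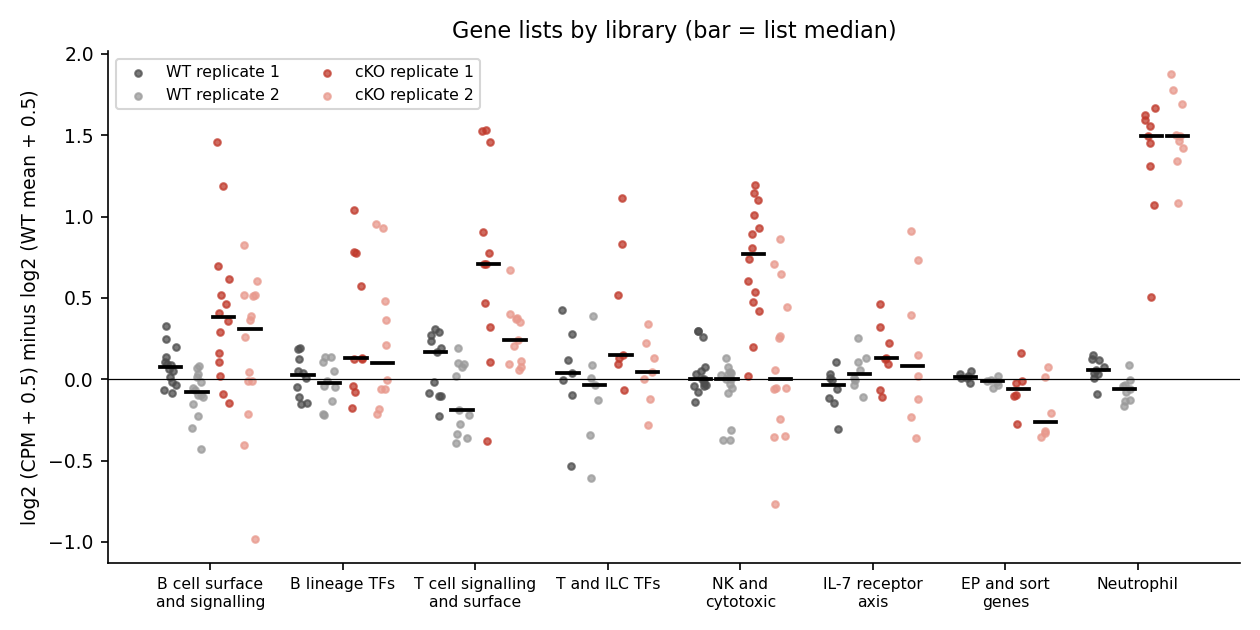
Each tested gene of 8 lists as log2 (CPM + 0.5) minus that of the WT mean, by library; bars are list medians. NK and cytotoxic genes had a median of 0.77 in TopBP1cKO replicate 1 and 0.00 in TopBP1cKO replicate 2, T cell signalling genes 0.71 and 0.24, whereas the neutrophil genes lay above the WT mean in both.

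Markers of other cells were also read in these libraries, and their lists did not move alike. On the neutrophil list, 9 of 9 genes were above WT in both TopBP1cKO libraries and 5 passed FDR < 0.05. Over all genes tested these shares were 22.8% and 0.105%. Their summed level was 736 to 782 CPM in WT and 2176 to 2191 CPM in the libraries labelled TopBP1cKO, with no marker at 0. The list was thus nearly equal in the 2 TopBP1cKO libraries, where the T and NK lists were not. The pDC list, whose cells share B lineage transcripts, had a median of 0.02 and a summed level of 288 to 289 CPM in WT and 270 to 284 CPM in the libraries labelled TopBP1cKO. Of its 8 genes tested, 4 had a log2 fold change above 0 and 4 below, and *Cox6a2* alone passed FDR < 0.05. It was higher in the libraries labelled TopBP1cKO, with 183 and 168 counts against 0 and 3 in WT, a ratio of 115 (95% exact interval 39.1 to 561, counting error only). *Tcf4* and *Bst2* lay below WT in both TopBP1cKO libraries (log2 fold changes −0.33 and −0.29), and *Runx2* above (0.40). Macrophage markers had a median of 0.02 over 6 genes tested and summed to 37.3 to 40.7 CPM in WT and 44.8 to 49.0 CPM in the libraries labelled TopBP1cKO, and erythroid genes a median of 0.38 over 4, with 13.10 to 15.97 and 18.12 to 18.50 CPM. The list of sort and EP genes (*Itgax*, *Kit*, *Cd24a*, *Flt3*, *Irf8*, *Ptprc*) had a median of −0.16. Its summed level was 6401 to 6495 CPM in WT and 5563 to 6289 CPM in the libraries labelled TopBP1cKO. The part of any of these cells in the lymphoid counts was not tested.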

How the data were processed

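Bulk RNA-seq of CD24+ EPs was taken from 4 spleen samples, 2 WT and 2 labelled TopBP1cKO, prepared with the CORALL RNA-seq V2 kit. The authors deposited whole-number read counts per RefSeq transcript, without normalization. The submitters' processing notes name fastp, STAR, Salmon, GATK and GRCm39, and how reads shared by transcripts or carrying molecular identifiers were counted is not given in the sources used here. For the RNA, the labels name RNAiso Plus and the paper's methods an RNeasy kit.

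Counts were summed per gene symbol. Mitochondrial genes, the only rows without an accession that held counts, took 3.03% to 4.86%. Some listed genes are not reported here. Genes passing filterByExpr (12393 of 19815 with a count) were TMM-normalized and tested with the quasi-likelihood test of edgeR 4.0.16 (R 4.3.3), with Benjamini–Hochberg adjustment (FDR < 0.05). SEs were derived from the fold change and its F statistic. The biological coefficient of variation was 15.2%. Lengths are medians of GENCODE M21 protein-coding transcripts. The fit was tested on simulated data. The members, lists and tests were chosen with earlier results of these data known. Genes named were drawn from the members, *Topbp1*, the sort and EP genes, list members and the 3 smallest p-values of each list. The 3 genes of at least 20 mean counts nearest to *Cd79a*, *Cd3e* and *Nkg7* were also named.

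Alternatives were no filter, at least 10 counts in every library, DESeq2 size factors, upper quartile normalization, DESeq2 1.42.0, the edgeR likelihood ratio test, limma-voom (limma 3.58.1), the most abundant transcript, a replicate block, and each library left out.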

Additional observations from a re-analysis of the deposited data

How the results depend on the processing

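No member passed FDR < 0.05 under any other filter, normalization, test or the replicate block. With each library left out, which leaves 1 library in a group that is assumed to vary like the others, the number of members at FDR < 0.05 ran from 0 to 1 (*Il7r* without TopBP1cKO replicate 1, *Nkg7* without TopBP1cKO replicate 2) and their median log2 fold change from 0.39 to 0.52. *Nkg7* ran from −0.87 to 1.06 and turned direction without TopBP1cKO replicate 1. *Topbp1* ran from −0.60 (FDR 0.0168, without TopBP1cKO replicate 2) to 0.11, its direction turned without TopBP1cKO replicate 1. Over the wider lists, 0 genes passed, and 1 with the likelihood ratio test (*Il2rg*). Some list genes changed their call with a TopBP1cKO library left out. Without TopBP1cKO replicate 1 these stood at 0.99 (*Spib*), 1.02 (*Ikzf3*), 0.92 (*Bank1*), 0.37 (*Cd22*), 0.74 (*Il2rg*), 0.98 (*Socs2*), −0.99 (*Cd37*) and −0.41 (*Btk*). Without TopBP1cKO replicate 2 they stood at 1.55 (*Fcrla*), 1.67 (*Lck*), 1.73 (*Thy1*), 1.16 (*Tcf7*), 0.76 (*Ccl5*) and 1.29 (*Il2rb*). With each of the 4 libraries left out in turn, the median of the wider lists ran from 0.17 (without TopBP1cKO replicate 1) to 0.53 (without WT replicate 1). Over all genes, 13 passed, 2628 without TopBP1cKO replicate 1, 172 without TopBP1cKO replicate 2, 8 and 1 without WT replicates 1 and 2, 19 with no filter, 9 with at least 10 counts or upper quartile normalization, 137 with DESeq2, and 234 when the likelihood ratio test was used.

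The deviations of same-numbered libraries had a correlation of −0.0313 over 12393 genes, so no pairing by replicate number was seen over all genes. Whether same-numbered libraries shared a preparation was not tested. With the replicate block, 504 genes passed over all genes, 0 of the members and 3 of the wider lists (*Fcrla*, *Il2rb* and *Il2rg*). Counts under 100 in most libraries limit the members: at 2 libraries a group the SE of their log2 fold changes ran from 0.21 to 0.54, and *Cd3e*, at 5 to 24 counts, could not be tested after filtering.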
